A study of Mus musculus with 4 samples.

Results

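The 10 genes described here encode alarmins and cytokines of the keratinocyte, a receptor antagonist, a decoy receptor and a Toll-like receptor: Il1a, Il1b, Il1rn, Il1r2, Il33, Il18, Il24, Il11, Tslp and Tlr2. They were followed in peak lists from chromatin immunoprecipitation and sequencing (ChIP-seq) of p63, a p53 family transcription factor needed to form and renew the epidermis. A peak belonged to a gene when its summit lay in the gene body or within 50 kb of it, on the mm10 build. By that rule the genes held 13 of 14593 alphaKO peaks and 14 of 10616 WT peaks, out of 21883 protein-coding genes in all. The genes were chosen by name, with peak positions of these lists known, and their peaks by position, so where the peaks lie is a description and carries no test.

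The epidermis was that of the back of newborn mice (postnatal day 0). The groups were p63 alphaKO, a genotype given by the labels in those words, and wild type (WT), each with 1 library precipitated with the p63 antibody EPR570 and 1 input library, which was not used here. All samples were epidermis separated from dermis. The sources used here give neither the strain, the sex or the number of animals per sample, nor how the alphaKO allele was made and which p63 isoforms it leaves. Since each genotype had a single ChIP library, replicate spread is unknown and no difference between alphaKO and WT was tested. Fold enrichment, −log10 q and pileup are the authors' values for each peak. They describe and order peaks within 1 list, and values of both lists stand side by side without measuring a change.

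Interleukin-1 cytokines are made by keratinocytes and released or activated when the barrier is breached. IL-1 alpha and IL-33 act as alarmins, stored in cells and freed by damage, while IL-1 beta and IL-18 are cut into active form by caspases. The IL-1 receptor antagonist and the decoy receptor encoded by Il1r2 restrain the same signal. TSLP is an epithelial cytokine linked to type 2 skin inflammation, IL-24 belongs to the IL-20 group, IL-11 signals through the receptor subunit gp130, and Tlr2 senses bacterial lipoproteins.

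The sequences of 3 promoters are shown because a peak counted for these genes lay on or near them. They are RefSeq promoter windows (GRCm38.p6, 250 bases before to 50 after a start). Il1f10, a neighbour of Il1rn that encodes an interleukin 1 family cytokine, had a window under a peak of both lists. Il1r2 had a peak of both lists just before its window, and Il11 a WT peak beyond 1 of its 2 windows. A WT peak counted for Il18 overlapped the window of Pih1d2, which is not shown. Capitals mark matches, on either strand, to the p53 family core (2 copies of CNNG with 6 bases between them), to CATG, or to the AP-1 site TGANTCA.
Il1f10 (chr2:24290946-24291245, plus strand): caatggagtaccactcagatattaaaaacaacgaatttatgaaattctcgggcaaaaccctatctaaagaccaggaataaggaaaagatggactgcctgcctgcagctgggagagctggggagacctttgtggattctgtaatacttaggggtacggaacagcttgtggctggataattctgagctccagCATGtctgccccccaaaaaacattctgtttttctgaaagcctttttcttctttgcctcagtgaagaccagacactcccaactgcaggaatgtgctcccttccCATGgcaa
Il1r2 (chr1:40085843-40086142, plus strand): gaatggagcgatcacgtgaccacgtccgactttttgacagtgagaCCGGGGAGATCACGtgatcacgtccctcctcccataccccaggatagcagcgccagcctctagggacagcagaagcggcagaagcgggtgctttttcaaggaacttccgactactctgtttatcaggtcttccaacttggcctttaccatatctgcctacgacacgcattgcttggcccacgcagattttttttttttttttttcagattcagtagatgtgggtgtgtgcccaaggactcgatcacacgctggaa
Il11 (chr7:4778092-4778391, minus strand): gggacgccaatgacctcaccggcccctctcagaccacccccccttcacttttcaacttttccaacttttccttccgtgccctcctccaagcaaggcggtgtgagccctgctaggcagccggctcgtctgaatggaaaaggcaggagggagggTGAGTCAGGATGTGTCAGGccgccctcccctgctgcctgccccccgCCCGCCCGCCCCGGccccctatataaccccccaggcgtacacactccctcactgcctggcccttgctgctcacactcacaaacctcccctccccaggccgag
The last 192 bases of the Il1f10 window lay under the alphaKO peak and the last 206 under the WT peak. Its second CATG ended 5 bp before the alphaKO summit and 7 bp before the WT summit, and the window stopped short of both summits, so bases beyond it were not searched. The Il1f10 window held no core match. The Il1r2 window held 1 core match, and the Il11 window held 2, of which 1 shared 2 bases with an AP-1 match.

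Among 32851 promoter windows in the table, 70.2% held the core, 61.1% held CATG and 7.81% held the AP-1 site. In the 877 windows overlapped by an alphaKO peak, 91.8% held the core, 54.3% CATG and 10.6% the AP-1 site. In the 1793 windows overlapped by a WT peak, the shares were 92.2% for the core, 44.45% for CATG and 9.20% for the AP-1 site. Of the 10 genes, 8 had entries, with 12 windows, some of them overlapping, of which 8 held the core, 6 CATG and 3 the AP-1 site. None of the 12 windows was overlapped by a peak of either list, against 2.67% of all windows overlapped by an alphaKO peak and 5.46% by a WT peak. A match is a run of letters and does not show binding.

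Peaks of both lists stood at 8 of the 10 genes, and none stood at Il33 or Il24. Among all protein-coding genes, 55.0% had an alphaKO summit within that distance, 47.1% a WT summit, 40.9% a summit of each list and 38.8% neither. Il1b held 4 alphaKO and 4 WT peaks, more than any other of the 10 genes in either list. Across all genes, 7.94% held at least 4 alphaKO summits and 7.01% at least 4 WT summits. Il1a and Il1r2 each held 2 peaks in each list. Il1rn held 2 alphaKO peaks and 1 WT peak, Il18 and Il11 each held 1 alphaKO peak and 2 WT peaks, and Tslp and Tlr2 each held 1 in each list. A peak between Il1a and Il1b counted for both genes. Within 10 kb, 4 of the 10 genes had an alphaKO summit (Il1b, Il1rn, Il1r2 and Tslp), beside 30.6% of all genes, and 4 had a WT summit (Il1b, Il1r2, Il11 and Tslp), beside 26.4%.

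**Figure D1:**
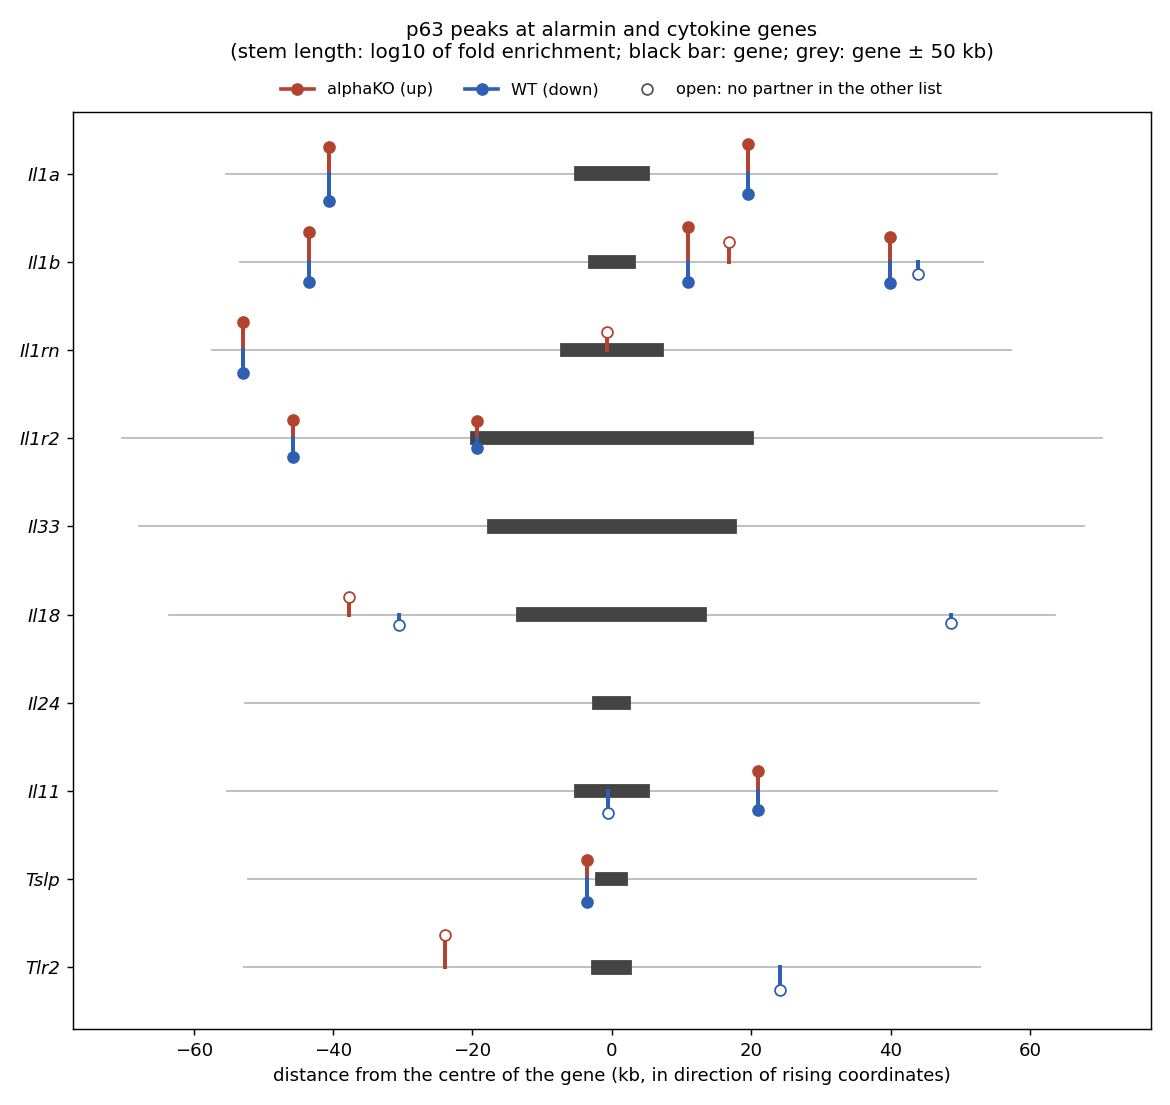
Peaks at each of the 10 genes, drawn as distance in kb from the centre of the gene, with alphaKO peaks above the line and WT peaks below it. Stem length is the log10 of fold enrichment, filled circles are peaks with a partner in the other list and open circles peaks without; Il33 and Il24 are empty, and the alphaKO and WT peaks at Tlr2 lie on opposite sides of the gene.

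The peaks formed 18 distinct sites, 9 in both lists, 4 in alphaKO alone and 5 in WT alone. Of the 13 alphaKO peaks, 9 (69.2%, 95% Wilson interval 42.4 to 87.3) overlapped a WT peak by 1 bp or more, beside 48.4% of the whole alphaKO list. Of the 14 WT peaks, 9 (64.3%, 38.8 to 83.7) overlapped an alphaKO peak by 1 bp or more, beside 66.6% of the whole WT list. Both intervals contain the whole-list share, and they cover counting error only, since peaks of 1 library are not replicates. Shared summits lay 2 to 12 bp apart at these genes, where the median over all 7054 shared sites was 8 bp. The median fold of the peaks was 14.2 in alphaKO and 13.5 in WT, beside list medians of 15.5 in alphaKO and 8.44 in WT. Above its list median stood 6 of the 13 alphaKO peaks and 10 of the 14 WT peaks.

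The summit lay in the body of 1 of the 10 genes for 2 alphaKO peaks and 2 WT peaks, and in the body of any protein-coding gene for 3 of 13 alphaKO and 5 of 14 WT peaks, beside 50.1% and 50.9% of the whole lists. The nearest protein-coding gene was 1 of the 10 for 9 alphaKO and 9 WT peaks. The others lay nearer to Ckap2l, Il1f10, Pts, Bco2, Nkapd1 or Rpl28.

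The agonist genes Il1a and Il1b lie 54.4 kb apart on chromosome 2 (Il1a at 129299609 to 129310186, Il1b at 129364569 to 129371164, both on the minus strand), and their 6 sites spanned 147 kb. The strongest alphaKO peak of the whole group lay here, 7.64 kb outside the start side of Il1b, at 129378539 to 129379111. It had a fold of 90.7, a pileup of 705 and a −log10 q of 1117 in alphaKO, against a fold of 13.5, a pileup of 74 and a −log10 q of 58.4 in WT. By fold it ranked 282 of 14593 in alphaKO and 2856 of 10616 in WT. The alphaKO peak was 573 bp wide and the WT peak 303 bp, with summits 2 bp apart.

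Another site lay between the genes, 14.2 kb from Il1a and 40.2 kb from Il1b on the start side of Il1a. Its fold was 51.03 in alphaKO and 13.4 in WT, with pileups of 322 in alphaKO and 117 in WT. The site 36.6 kb on the start side of Il1b had a fold of 26.2 in alphaKO and 15.1 in WT. The site 35.2 kb beyond the end of Il1a, which lay nearer to Ckap2l, had almost the same values in both lists. There the fold was 33.6 in alphaKO and 34.2 in WT, and the pileup 358 in alphaKO and 353 in WT. In the WT list it was the strongest peak of the group, ranked 426 of 10616, and in alphaKO it ranked 2598 of 14593. Near Il1b each list also had 1 peak of its own. The alphaKO one, 13.6 kb from the gene, had a fold of 12.6 and lay 5.92 kb from the nearest WT summit. The WT one, 40.6 kb from the gene, had a fold of 4.89 and lay 3.99 kb from the nearest alphaKO summit.

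**Figure D2:**
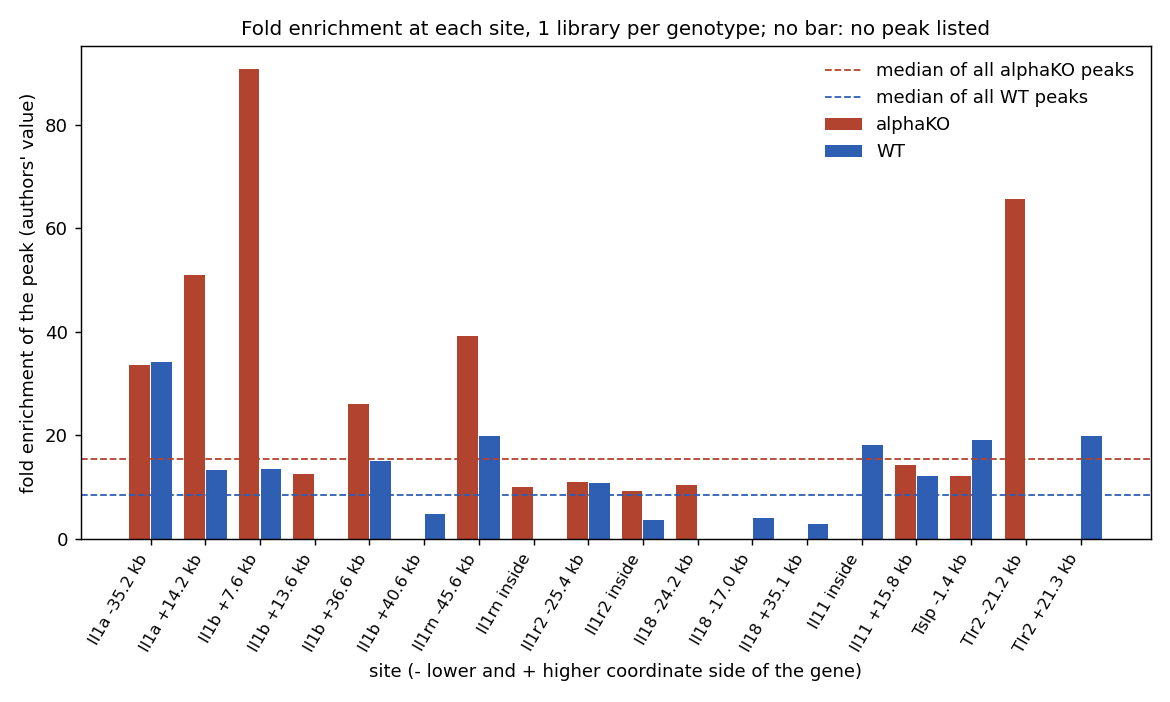
Fold enrichment, the authors' value, at each of the 18 sites in alphaKO (left bar) and WT (right bar), with dashed lines at the median of each whole list; an absent bar means that no peak was listed. The tallest alphaKO bars are at Il1b (90.7) and Tlr2 (65.6), and the tallest WT bar is 35.2 kb from Il1a (34.2).

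At Il1rn and Il1r2, which encode inhibitors of the pathway, the sites that lay nearest to these genes had folds of at most 11.05 in either list. All alphaKO folds there were below the list median of 15.5, but the Il1r2 site at 25.4 kb stood above the WT median of 8.44. Only Il1rn also had a site with higher values, which lay farther off. Il1rn, which encodes the receptor antagonist (chromosome 2, 24336860 to 24351491, plus strand), had an alphaKO peak inside the gene at 24343259 to 24343585, with a fold of 9.97 and a −log10 q of 44.4. The peak lay 1.86 kb before 1 of its internal starts and 52.2 kb from the nearest WT summit. The other site counted for Il1rn lay 45.6 kb away, 50 bp past the start of Il1f10 in alphaKO and 52 bp past it in WT. It had a fold of 39.2 in alphaKO and 19.9 in WT, and pileups of 326 in alphaKO and 137 in WT. This was the site just inside the 50 kb limit, and the nearest beyond that limit was at 53.4 kb from Tslp, with a fold of 12.03 in alphaKO and 9.46 in WT.

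Il1r2, the decoy receptor gene (chromosome 1, 40084692 to 40125230, plus strand), had 2 sites, and both were in both lists. The site 25.4 kb before the gene had a fold of 11.05 in alphaKO and 10.9 in WT. A higher fold was held by 68.7% of alphaKO peaks and 36.5% of WT peaks. The site at the promoter had its summit 447 bp before the start that the printed window is built on, which lies inside the gene's outer bounds, in alphaKO and 436 bp before it in WT. Its fold was 9.26 in alphaKO and 3.69 in WT, with pileups of 89 in alphaKO and 43 in WT. It was a weak site in both lists: 78.2% of alphaKO peaks and 90.1% of WT peaks had a higher fold.

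The alarmin gene Il33 (chromosome 19) and the IL-20 group gene Il24 (chromosome 1) had no listed peak within 50 kb. The summit nearest to Il33 lay 66.1 kb away in alphaKO, with a fold of 23.2, and 230 kb away in WT, with a fold of 19.7. For Il24 it lay 79.0 kb away in alphaKO (fold 15.3) and 111 kb away in WT (fold 3.90). Absence from a list means that no site passed the peak caller's threshold, and a weaker site may exist. Il18 (chromosome 9) had 1 alphaKO and 2 WT peaks, all without a partner and all nearer to another gene. The alphaKO peak, 24.2 kb away and beside Pts, had a fold of 10.5. The WT peaks had folds of 3.98, inside Bco2, and 2.81, inside Nkapd1 and 374 bp before the start of Pih1d2, whose promoter window it overlapped. With −log10 q of 9.15 and 4.47, both WT peaks were weaker than a −log10 q of 10, so at that threshold Il18 had no WT peak.

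Il11 and Tslp encode cytokines outside the interleukin-1 family. Il11 (chromosome 7, 4772373 to 4782907, minus strand) had a WT peak inside the gene at 4776854 to 4777270, with a fold of 18.1, a pileup of 102 and a −log10 q of 93.2. No alphaKO summit lay within 21.6 kb of it. Its summit was 1.07 kb past the gene start on which the Il11 promoter window printed above is built. In the whole WT list this peak ranked 1754 of 10616 by fold, with 16.5% of peaks higher. Among the 3550 WT peaks without an alphaKO partner it ranked 9 by fold, so that 0.254% of them were at least as high. The other Il11 site, 15.8 kb before the gene and nearer to Rpl28, had a fold of 14.2 in alphaKO and 12.2 in WT.

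At Tslp (chromosome 18, 32815383 to 32819799) both lists had 1 peak, 1.41 kb from the gene in alphaKO and 1.40 kb in WT. The fold was 12.1 in alphaKO and 19.2 in WT, the pileup 69 in alphaKO and 158 in WT, and the width 358 bp in alphaKO and 827 bp in WT. Of the 9 shared sites, this one and the Il1a site beyond the end of the gene were those with a higher fold in WT. At Tslp 63.5% of alphaKO peaks had a higher fold, and 14.9% of WT peaks.

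Tlr2 (chromosome 3, 83836272 to 83841824, minus strand) had 1 peak in each list, on opposite sides of the gene. The alphaKO peak, at 83814787 to 83815406, lay 21.2 kb beyond the end of the gene, with a fold of 65.6, a pileup of 605 and a −log10 q of 869. The WT peak, at 83862693 to 83863350, lay 21.3 kb before the start, with a fold of 19.8, a pileup of 143 and a −log10 q of 134. Neither had a partner: the alphaKO summit was 39.5 kb from the nearest WT summit, and the WT summit 48.1 kb from the nearest alphaKO summit. By fold, the alphaKO peak ranked 658 of 14593 in its whole list and the WT peak 1480 of 10616. Higher folds were held by 4.50% of alphaKO peaks and 13.9% of WT peaks. Among peaks without a partner, the alphaKO peak ranked 142 of 7523 in its list and the WT peak 5 of 3550 in its own. At 60.8 kb from the gene, nearer to Sfrp2, both lists had a peak again, with a fold of 11.9 in alphaKO and 8.64 in WT.

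Lists of different length give ranks that cannot be set against each other, so the 7054 sites found in both lists were ranked by fold within each list. Of the 9 shared sites at the cytokine genes, 3 stood higher in the alphaKO order and 6 higher in the WT order. The Il1b site at 7.64 kb stood at place 227 in alphaKO and 2821 in WT, and 5.06% of all shared sites differed as far in that direction. The site between Il1a and Il1b stood at 934 in alphaKO and 2847 in WT, as far as 10.2% of sites. The Tslp site stood at 5197 in alphaKO and 1570 in WT, and 1.09% of shared sites differed as far toward WT. Ordered by pileup in place of fold, the share was 0.992% for the Il1b site, 13.4% for the site between Il1a and Il1b and 0.524% for the Tslp site. Ordered by −log10 q, it was 1.70% for the Il1b site, 12.7% for the site between the genes and 0.539% for the Tslp site. The site 35.2 kb from Il1a stood at 1999 in alphaKO and 426 in WT by fold, as far toward WT as 13.6% of sites. That 36.6 kb from Il1b stood at 2806 in alphaKO and 2381 in WT, as far toward WT as 36.9%. The Il1r2 site at 25.4 kb and the shared Il11 site also stood higher in the WT order, as far as 12.3% and 15.0% of sites. The median difference in place by fold, without regard to direction, was 1573 over the 9 sites and 868 over all shared sites. It was 1019 over the 9 sites and 876 over all by pileup, and 1147 over the 9 sites and 853.5 over all by −log10 q. These places describe 1 library each, and the spread between libraries of 1 genotype is unknown.

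**Figure D3:**
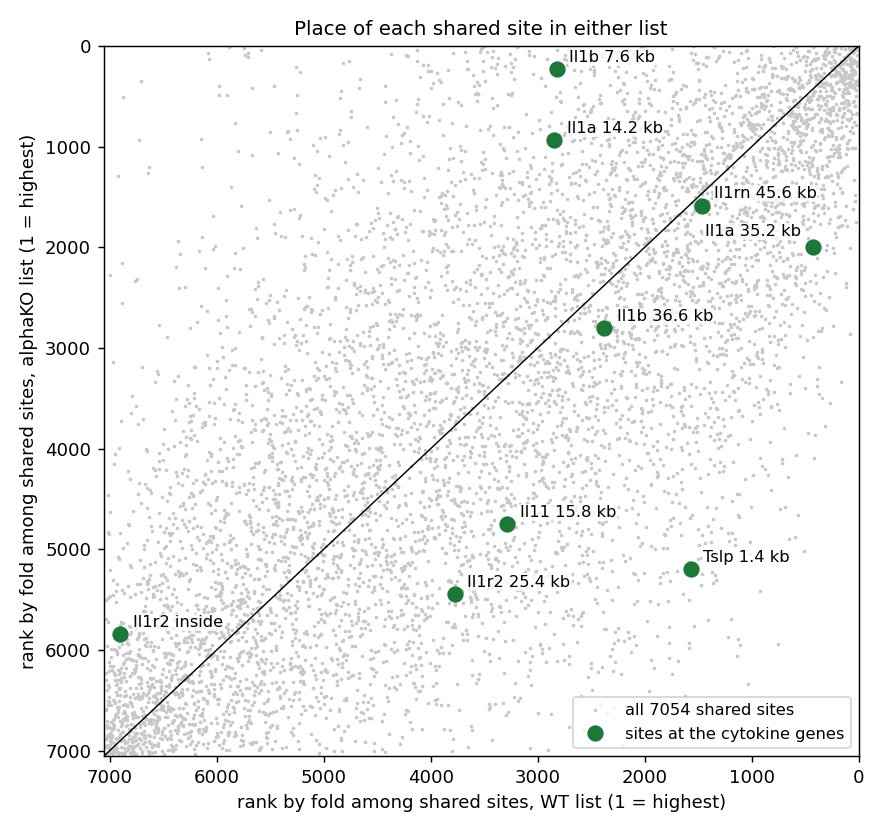
Place of each of the 7054 shared sites when ranked by fold within the alphaKO list (y axis) and within the WT list (x axis), with place 1 at the upper right. The Il1b site at 7.6 kb (227 in alphaKO, 2821 in WT) lies above the diagonal and the Tslp site (5197 in alphaKO, 1570 in WT) below it.

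Other genes of these pathways were counted in 10 lists of 97 names, of which 96 matched the annotation. Of the 96, 60 (62.5%) had an alphaKO summit in the gene or within 50 kb and 52 (54.2%) a WT summit, beside 55.0% and 47.1% of all genes. Many of these genes lie in clusters, and neighbours can count the same peak. Where the strongest peaks of a gene are said to lie at different sites, a peak can still have a partner in the other list. Both had one at Tirap, Il20rb and Il6ra, only the WT peak at Il1rap, and neither at Nlrp3. The fold given for a gene is that of the strongest peak within 50 kb, which often lay nearer to another gene. Examples are Sigirr (12.2 kb, nearer to Pkp3), Gsdmd (16.9 kb, nearer to Mroh6), Pycard (31.7 kb, nearer to Trim72), Ticam1 (31.5 kb, nearer to Uhrf1), Il10 (39.6 kb, nearer to Mapkapk2) and Il6 (14.3 kb, nearer to Tyms), with distances as in alphaKO. The peak of Tirap lay nearer to Fam118b in alphaKO and to Dcps in WT, that of Lif and Osm nearer to Castor1, and that of Ccl17 and Cx3cl1 nearer to Ciapin1. Of 5 other interleukin 1 ligand genes, Il1f10 and Il1f5, the gene of the IL-36 receptor antagonist, had the shared peak at Il1f10 in both lists, and Il1f6, Il1f8 and Il1f9 had none. Of 10 other receptors and decoys, 5 had an alphaKO peak and 4 a WT peak. They included Sigirr, a negative regulator of the pathway (strongest fold 74.7 in alphaKO, 42.1 in WT), Il1r1, the signalling receptor (41.8 in alphaKO, 12.2 in WT), and Il1rap, its accessory chain (23.6 in alphaKO, 8.48 in WT, at different sites). Il18rap had 2 peaks in alphaKO and none in WT, the strongest (23.8) 33.4 kb away and nearer to Slc9a4.

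Of 10 inflammasome and processing genes, 6 had an alphaKO peak and 6 a WT peak, 4 of them in both lists. The strongest in alphaKO were at Nlrp3, an inflammasome sensor (102.9 in alphaKO, 4.54 in WT, at different sites), Gsdmd, which encodes the pore-forming gasdermin D (63.7 in alphaKO, 47.9 in WT), and Pycard, the adaptor (33.8 in alphaKO, 21.5 in WT). Casp8 had a peak in alphaKO alone (32.8), and Casp1 and Casp4 shared 1 in WT alone (8.82). Of 16 other Toll-like receptor and adaptor genes, 8 had an alphaKO peak and 5 a WT peak. Ticam1 had folds of 51.1 in alphaKO and 24.6 in WT, and Tirap 38.9 in alphaKO and 9.75 in WT at different sites. The neighbours Tlr1 and Tlr6 had peaks in alphaKO alone, with the same strongest peak (36.5).

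Of 8 genes of the IL-10 and IL-20 group, 5 had an alphaKO peak and 4 a WT peak. Il20rb, a receptor chain used by IL-24, had its strongest peaks inside the gene, at different sites, with folds of 28.5 in alphaKO and 26.3 in WT, whereas Il19 and Il20, beside Il24, had none. Il10 had 42.3 in alphaKO and 14.2 in WT. Of 10 genes of the IL-6 family, which includes Il11, 6 had an alphaKO peak and 7 a WT peak. The strongest in alphaKO were at Il6 (64.6 in alphaKO, 9.68 in WT), the neighbours Lif and Osm (52.8 in alphaKO, 31.5 in WT) and the receptor gene Il6ra (51.96 in alphaKO, 38.3 in WT, at different sites). No listed peak lay at Il11ra1, which encodes the IL-11 receptor. Of 5 TSLP and IL-7 type genes, 4 had an alphaKO peak and 2 a WT peak, led by Il15 (60.6 in alphaKO, 27.9 in WT). Crlf2, the TSLP receptor gene, had a peak in alphaKO alone (8.79).

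Of 12 chemokine genes, 8 had an alphaKO peak and 8 a WT peak, among them Ccl17 and Cx3cl1 with a common site (52.7 in alphaKO, 13.8 in WT) and Cxcl14 (32.6 in alphaKO, 22.4 in WT). Of 10 other alarmin and antimicrobial genes, 8 had an alphaKO peak and 5 a WT peak. Defb1, a beta-defensin gene, had folds of 73.4 in alphaKO and 18.8 in WT, and Hmgb1, a nuclear alarmin, 37.2 in alphaKO and 13.7 in WT. Of 10 other epidermal cytokines, 8 had an alphaKO peak and 9 a WT peak, with Il25 (67.5 in alphaKO, 41.9 in WT), Tgfa (45.6 in alphaKO, 28.5 in WT) and Csf1 (41.8 in alphaKO, 19.9 in WT) the strongest.

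**Figure D4:**
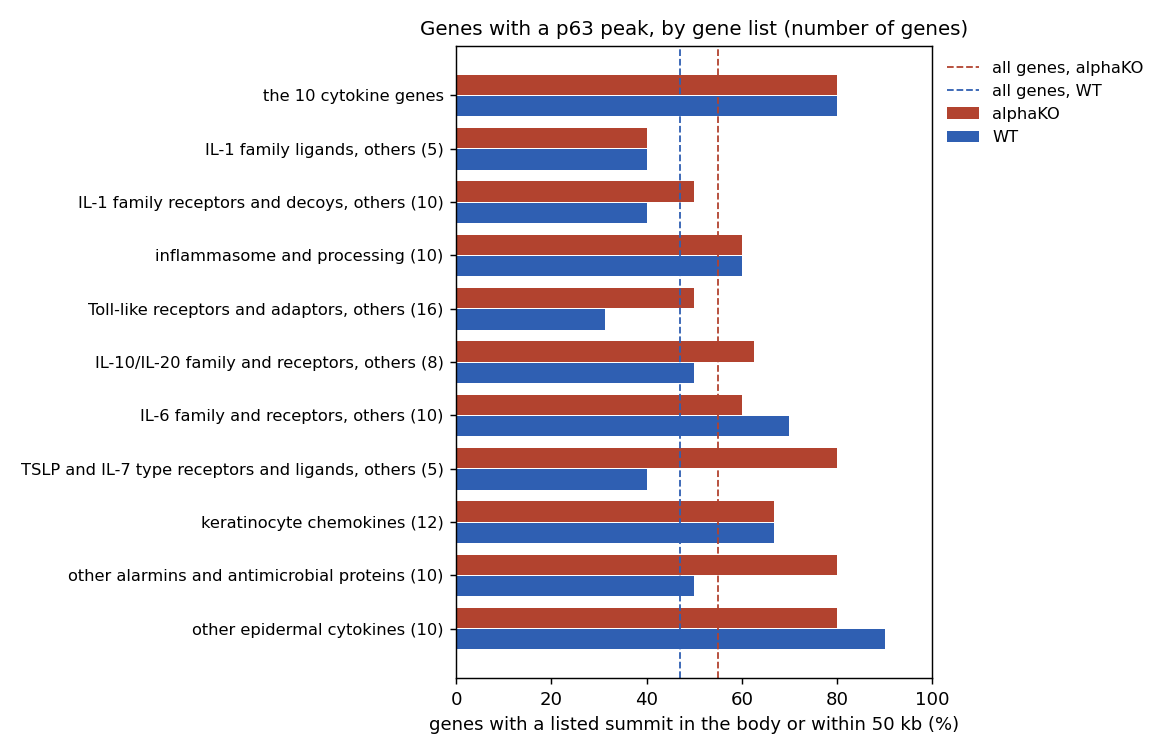
Share of genes with a listed summit in the gene or within 50 kb, in percent, for the 10 cytokine genes and the 10 pathway lists, with alphaKO above WT and the number of genes in parentheses. Dashed lines mark the share of all protein-coding genes, 55.0% in alphaKO and 47.1% in WT.

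The window of 50 kb also reached genes of other cells. Among all protein-coding genes, 55.0% had an alphaKO summit within it and 47.1% a WT summit. Of 6 immune cell markers, 4 had an alphaKO and 3 a WT summit. Of 5 dermal fibroblast markers 3 had one in alphaKO and 1 in WT, and of 4 melanocyte markers 3 in alphaKO and 2 in WT. The strongest peak often lay nearer to another gene, as at Itgam (Trim72), Cd3e (Mpzl2), Col1a1 (Ppp1r9b) and Pmel (Dgka). Lum and Dcn had the same strongest alphaKO peak. Of 6 keratinocyte markers, 5 had an alphaKO peak and 6 a WT peak. Among these markers the highest fold was at Trp63, the p63 gene itself, with 100.3 in alphaKO and 109.6 in WT. Krt14 had a strongest fold of 52.7 in alphaKO and 26.8 in WT. Krt10 stood above Krt14 in both lists, and Dsg3 stood above Krt14 in alphaKO but below it in WT. Krt1 had a peak in WT alone (2.93), and the fibroblast marker Lum (92.6) and the melanocyte marker Mitf (73.9) had one in alphaKO alone. Whether other cells of the epidermis contributed to the peaks at the cytokine genes was not tested. Peaks do not measure transcripts, so neither the genotype label nor the expression of the 10 genes was checked by these files.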

How the data were processed

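The p63 ChIP-seq peaks of 1 alphaKO and 1 WT epidermis sample were analysed, from a list each; no input sample was used here. The submitters' processing notes name Bowtie2, MACS2 2.1.1.20160309 and the mm10 build. Aligner version, peak caller options, treatment of duplicates and the control library are not known from the sources used here. Each list holds, per the file headers, the position and summit of every peak with 4 values that the authors deposited: a pileup or coverage signal, −log10 p-value, −log10 q-value and fold enrichment over local background. The smallest −log10 q was 1.36 in alphaKO and 1.31 in WT. Read totals are unknown, so no detection limit could be computed, and sites below the caller's threshold are not seen.

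Genes were the 21883 protein-coding genes of RefSeq GRCm38.p6, the assembly that mm10 names, and promoters came from a RefSeq table of that build. Partners shared at least 1 bp; shared sites were mutual best partners. Intervals are 95% Wilson intervals and cover counting error only. The genes, lists and alternatives were chosen with earlier results of these data known. All peaks of the 10 genes are described, and of each pathway list genes among those with the highest folds; genes with a peak in 1 list alone, or with none, were also named after their values were seen. IL-36 genes were matched by older symbols. Alternatives were stricter q and fold thresholds, equal list lengths, other distances, assignment to the nearest gene and other definitions of overlap. Promoter matches were searched on both strands. Overlap and gene assignment were tested on simulated lists. Scripts ran in Python 3.11.15 with pandas 2.3.3, NumPy 2.4.6, SciPy 1.17.1 and, for plots, matplotlib 3.10.9.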

Additional observations from a re-analysis of the deposited data

How the results depend on the processing

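The counts of peaks and genes depended mainly on the distance that ties a peak to a gene. Within 10 kb, 4 alphaKO and 4 WT peaks remained, at 4 genes in alphaKO and 4 in WT, of which 3 had both, beside 30.6% of all genes with an alphaKO summit and 26.4% with a WT summit at that distance. Within 100 kb the alphaKO peaks numbered 20, and with only peaks whose nearest gene was 1 of the 10 the WT peaks numbered 9. All 10 genes had an alphaKO peak within 100 kb and 8 had a WT peak. At a −log10 q of at least 10, and at a fold of at least 5, 8 genes had an alphaKO and 7 a WT peak. The share of all genes was not computed within 100 kb or at these thresholds, so these counts have no background beside them. The other comparisons of counts with an alternative stayed within 1.5 times. The shares with a partner lay between 61.5% and 75% in alphaKO and between 57.1% and 80% in WT. Every share stayed within its interval, but the intervals (42.4 to 87.3 in alphaKO, 38.8 to 83.7 in WT) are wide, so this is a weak check. Ordering the shared sites by −log10 q or pileup, added after the values were seen, kept the direction of 8 of the 9 sites. The exception was the site 45.6 kb from Il1rn, whose WT place minus its alphaKO place was -116 by fold, 579 by −log10 q and 1008 by pileup; the cause was not tested. No paired analysis was possible because each genotype had 1 library.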
